A study of Mus musculus with 6 samples.

Results

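The genes described are those of the mitochondrial ribosome that carry the names Mrpl or Mrps followed by a number, taken by their symbol in the annotation of a mouse bead array. There were 76 such genes among 19057 named genes on the array, 48 of the large subunit (Mrpl) and 28 of the small subunit (Mrps), and they were represented by 132 probes. The tissue was the right dentate gyrus (DG), a region of the hippocampus made up largely of granule cells, where new neurons are also born in the adult. It was micro-dissected from male C57/Black6J mice aged 6 to 8 weeks, 72 h after intraperitoneal injections. One group of 3 mice had received repeated low doses of kainic acid, which activates glutamate receptors, to induce status epilepticus (KA-SE), and only mice with sustained severe seizures had been included. The other group of 3 mice had received saline. Each mouse was hybridized to its own array, and the comparison asked whether transcripts of the mitochondrial ribosome differed between the groups 72 h after KA-SE.

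Mitochondrial ribosomes translate the few mRNAs encoded by mitochondrial DNA, all of which specify subunits of the respiratory chain and ATP synthase. Their RNAs come from mitochondrial DNA, whereas all of their proteins are encoded in the nucleus, made on cytosolic ribosomes and imported. The small subunit binds and decodes the mRNA, and the large subunit joins the amino acids and releases the chain towards the inner membrane. Some of the proteins have counterparts in bacterial ribosomes, and others are found only in mitochondria.

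Promoter sequence was described first, since the members share a function and not a chromosomal position. A window of 300 bases around the transcription start (250 before it and 50 after, RefSeq, GRCm38.p6) was matched for 67 of the 76 genes, some with several windows. It was searched on both strands for CCGGAAG, bound by ETS factors such as GA-binding protein, for AAGATGGC, bound by YY1, and for GCGCATGCG, bound by NRF1, all factors with known roles in the control of nuclear genes for mitochondrial proteins. The ETS motif lay in a window of 26 of the 67 genes (38.8%), against 18.5% of the genes tested on the array and 9.93% of all genes with a window. The YY1 motif was found for 12 members (17.9%), against 5.06% and 3.19%, and the NRF1 motif for 7 (10.4%), against 3.90% and 1.95%. For the ETS motif the share was 45.7% in the cytosolic ribosome and 25.4% in the respiratory chain. In the same order it was 6.52% and 16.9% for YY1 and 2.17% and 13.6% for NRF1. At least 1 of the 3 was present for 38 members (56.7%), against 25.2% of the genes tested and 14.1% of all genes with a window, and for 54.3% of the genes of the cytosolic ribosome and for 47.5% of those of the respiratory chain. Of the 51 matches in members, 42 began within 100 bases of the transcription start. The same share was not taken over all genes, and a large part of each window lies that close to the start. These matches are letters in a window and were not examined for binding. The following 4 windows are shown because each belongs to a gene whose values are given below and together they hold all 3 motifs, set in capitals on the strand of the gene. They are Mrpl3 (chr9:105053018-105053317, plus strand, ETS motif), Mrpl39 (chr16:84735195-84735494, minus strand, NRF1 motif, matched on both strands), Mrpl52 (chr14:54426659-54426958, plus strand, the ETS motif at 2 places) and Mrps27 (chr13:99344536-99344835, plus strand, ETS and YY1 motifs).
Mrpl3: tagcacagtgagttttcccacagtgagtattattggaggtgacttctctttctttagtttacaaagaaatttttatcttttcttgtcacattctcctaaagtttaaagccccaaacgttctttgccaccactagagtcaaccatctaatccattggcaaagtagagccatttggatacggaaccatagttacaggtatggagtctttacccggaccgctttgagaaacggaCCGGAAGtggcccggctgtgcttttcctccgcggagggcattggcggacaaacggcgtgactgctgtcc
Mrpl39: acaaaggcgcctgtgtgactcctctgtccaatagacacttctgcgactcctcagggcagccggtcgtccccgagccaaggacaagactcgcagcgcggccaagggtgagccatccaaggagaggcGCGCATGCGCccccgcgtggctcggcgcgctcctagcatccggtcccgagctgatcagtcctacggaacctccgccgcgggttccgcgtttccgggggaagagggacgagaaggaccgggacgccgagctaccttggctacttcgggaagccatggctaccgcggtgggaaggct
Mrpl52: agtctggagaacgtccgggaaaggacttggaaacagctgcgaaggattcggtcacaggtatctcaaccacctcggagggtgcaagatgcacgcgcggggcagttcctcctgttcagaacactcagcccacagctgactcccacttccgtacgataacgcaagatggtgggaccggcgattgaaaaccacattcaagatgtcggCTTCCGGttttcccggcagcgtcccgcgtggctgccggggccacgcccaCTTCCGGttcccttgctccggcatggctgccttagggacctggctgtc
Mrps27: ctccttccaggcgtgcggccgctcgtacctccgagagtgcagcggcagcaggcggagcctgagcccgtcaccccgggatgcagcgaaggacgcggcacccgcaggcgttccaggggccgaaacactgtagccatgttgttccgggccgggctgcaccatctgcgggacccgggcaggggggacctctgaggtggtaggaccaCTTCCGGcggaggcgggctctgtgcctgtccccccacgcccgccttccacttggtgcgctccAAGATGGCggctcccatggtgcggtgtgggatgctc

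The arrays carried 45281 probes, of which 48.1% to 50.3% were detected on each array (detection p-value under 0.05), with the highest share on the array of KA-SE replicate 1. Of the granule cell markers, Prox1 and C1ql2 were tested, Calb1 and Tdo2 were not detected on all arrays of either group, and no probe was assigned to Dsp. A log2 change below is KA-SE minus saline on normalized log2 signal, with its moderated standard error (SE), and a gene is represented by its brightest tested probe. The 2 tested granule cell markers had log2 changes of opposite sign (-0.23 and 0.29), and neither passed the test. All 5 astrocyte markers and all 6 microglial markers had positive log2 changes (medians 0.45 and 0.61), and of these Gfap passed the test. The summed signal of the astrocyte markers was 16236 to 17824 on the saline arrays and 25273 to 28600 on the KA-SE arrays, and that of the microglial markers 1358 to 1494 and 1830 to 2637. The choroid plexus marker Ttr differed between the saline arrays (log2 signal 14.85, 7.83 and 13.32) and was 13.28, 13.64 and 13.43 on the KA-SE arrays. Of the 3 tested choroid plexus and ependyma markers, Ttr alone had a positive log2 change (1.45). The other 2 had negative changes, and 0 of the 3 passed the test. In such bulk tissue, fewer cells of a type and less RNA per cell cannot be told apart, and the part of these cell types in the values of the members was not tested.

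No member passed the test in either direction. Of the 76 genes, 73 were tested, 46 of the large and 27 of the small subunit, since Mrpl19, Mrpl32 and Mrps14 were not detected on any array. By limma with Benjamini-Hochberg adjustment over all probes tested, 0 of 73 members had an adjusted p under 0.05, against 0.312% of the 11222 named genes tested (33 higher and 2 lower in KA-SE). An unadjusted p under 0.05 was reached by 0 of 73 members, against 8.45% of all genes. The lowest adjusted p among the members was 0.697, for Mrpl3. The missing calls do not show equal levels, and the intervals give the sizes that the arrays leave possible. The 95% confidence interval of the change lay within a 2-fold change in either direction for all 73 members and within 1.5-fold for 71 (97.3%, against 86.2% of all genes). The members whose interval reached past 1.5-fold were Mrpl52 and Mrpl55.

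**Figure D1:**
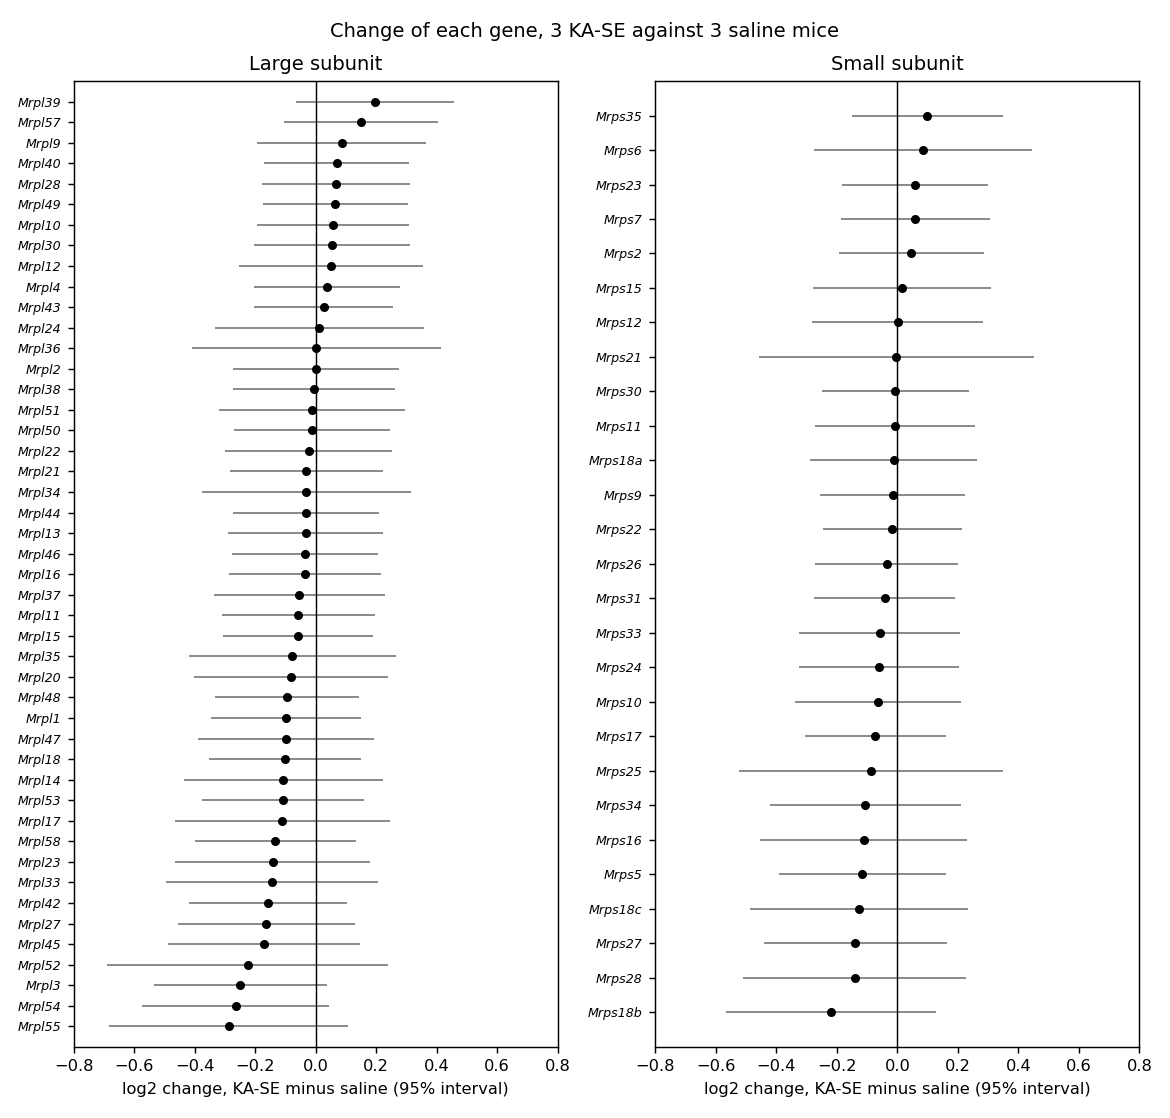
Log2 change of each of the 73 tested members (points, KA-SE minus saline, 3 mice a group) with its 95% confidence interval (lines), large subunit on the left and small subunit on the right, ordered by size. Every interval includes 0, and the changes run from -0.29 for Mrpl55 to 0.20 for Mrpl39.

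The changes were small and leaned to the negative side in both subunits. The median log2 change was -0.035 for the 46 large subunit genes and -0.035 for the 27 small subunit genes, against -0.001 for all genes tested. A negative change was found for 32 of 46 large and 20 of 27 small subunit genes, together 71.2%, against 50.3% of all genes. These shares rested on KA-SE replicate 1. Without that array, 21 of 46 and 12 of 27 genes had a negative change, and the medians were 0.014 and 0.004. Without KA-SE replicate 3 the medians were -0.10 and -0.09. The proteins Mrps30 and Mrps18a are found in the large subunit of the mammalian ribosome in spite of their names, and moving their genes to it left the medians at -0.034 and -0.042.

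Shown singly, the arrays of the KA-SE mice did not move together. Relative to the saline mean of each gene, the median over the 73 members was -0.007, -0.012 and 0.024 on saline replicates 1, 2 and 3. It was -0.104 on KA-SE replicate 1, -0.030 on KA-SE replicate 2 and 0.042 on KA-SE replicate 3. The median of all genes lay between -0.016 and 0.025 on the 6 arrays. In the large subunit KA-SE replicates 1 and 2 (-0.11 and -0.032) were below and KA-SE replicate 3 (0.044) above all saline arrays. In the small subunit KA-SE replicate 1 (-0.10) alone was below them, and KA-SE replicates 2 and 3 (-0.015 and 0.018) lay within the saline range (-0.017 to 0.026). For 33 of 73 members (45.2%) the lowest of the 6 values was that of KA-SE replicate 1, against 17.6% of all genes. KA-SE replicate 2 held the lowest value for 16 members (21.9%, against 14.3% of all genes) and KA-SE replicate 3 for 5 (6.85%, against 23.5%). The large subunit (20 of 46 lowest on KA-SE replicate 1) and the small subunit (13 of 27) were alike in this. On KA-SE replicate 1 the members also spread widely, since 16 of 73 (21.9%) lay more than 0.3 below their saline mean, against 9.47% of all genes, and Mrpl57 lay 0.30 above it. Of these 16 members, 14 lay within 0.3 of the saline mean on both other KA-SE arrays. Across the 73 members, the deviations on the KA-SE arrays gave a Pearson's r of -0.04, -0.08 and -0.01 between pairs of arrays. This is a description across genes, and for each gene the same saline mean is subtracted on every array. On KA-SE replicate 1 the Spearman's rho of the deviations with the gene's span was 0.12 and with its mean signal -0.09, likewise across genes.

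**Figure D2:**
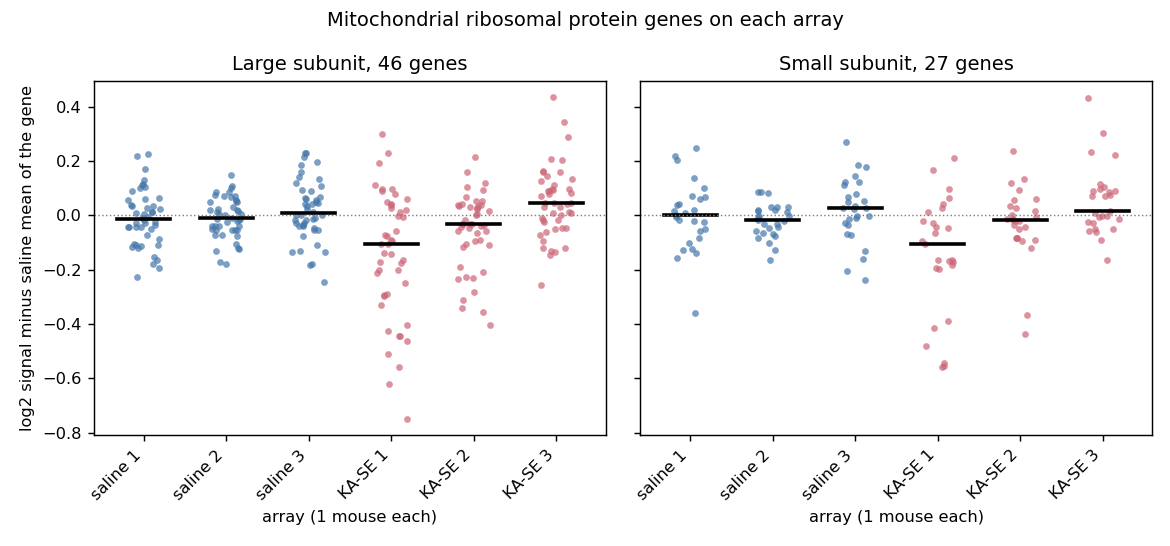
Log2 signal minus the gene's saline mean (vertical axis) for each tested member (points) on each of the 6 arrays, large subunit (46 genes) on the left and small subunit (27 genes) on the right, with the median of each array as a black line. On KA-SE replicate 1 the median is near -0.10 in both subunits and a tail reaches -0.75, whereas on KA-SE replicate 3 the medians are above 0.

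Among large subunit genes, 3 had all KA-SE values below all saline values. Mrpl54, found only in mitochondria, had a normalized log2 signal of 9.90, 9.80 and 9.92 in saline replicates 1, 2 and 3 and of 9.32, 9.77 and 9.74 in KA-SE replicates 1, 2 and 3. The groups did not overlap, but KA-SE replicates 2 and 3 lay just under the lowest saline array and KA-SE replicate 1 far below it. The mean was 1.20-fold lower in KA-SE (log2 change -0.27, SE 0.14, adjusted p = 0.708 by limma). Mrpl3, a large subunit protein with a bacterial counterpart, gave 9.37, 9.42 and 9.68 in saline and 9.28, 9.09 and 9.36 in KA-SE. Here KA-SE replicate 2 was the lowest array, and the highest KA-SE value was close to the lowest saline value (log2 change -0.25, SE 0.13, adjusted p = 0.697 by limma). The other 2 tested probes of Mrpl3 gave log2 changes of -0.09 and 0.09, so its probes did not share a direction. Mrpl48, another protein found only in mitochondria, gave 10.39, 10.38 and 10.53 in saline and 10.35, 10.31 and 10.34 in KA-SE. The KA-SE arrays were nearly equal and just below saline, with a log2 change of -0.10 (SE 0.11, adjusted p = 0.930 by limma). Its 3 tested probes gave changes of -0.10, -0.09 and -0.07, but on the other 2 probes the groups overlapped.

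Mrpl39 was the large subunit gene with all KA-SE values above all saline values. It encodes a protein found only in mitochondria, and its probe was near the detection limit, as it was detected on all 3 KA-SE arrays and on 2 of 3 saline arrays. Its log2 signal was 4.94, 4.94 and 4.67 in saline and 5.08, 5.07 and 4.99 in KA-SE (log2 change 0.20, SE 0.12, adjusted p = 0.764 by limma). Saline replicate 3 was low, and the other saline arrays lay only slightly below KA-SE. In the small subunit, Mrps17, with a bacterial counterpart, had 11.19, 11.10 and 11.10 in saline and 11.09, 11.05 and 11.04 in KA-SE. Its groups were separated by a gap much smaller than their ranges (log2 change -0.07, SE 0.10, adjusted p = 0.951 by limma). Together 4 of 73 members had all KA-SE values below all saline values, where 5.49% of all genes did, and 1 of 73 had them above, where 8.56% of all genes did. Neither share of the members exceeded that of all genes.

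Among the members with the strongest and weakest probe signals, the groups overlapped in all but Mrpl39. Mrpl28, a large subunit protein with a bacterial counterpart, gave 10.98, 10.96 and 10.97 in saline and 11.07, 10.92 and 11.13 in KA-SE. Mrpl23, which lies at the exit of the tunnel for the new chain, gave 11.43, 11.37 and 11.20 in saline and 10.89, 11.37 and 11.32 in KA-SE. The saline arrays of Mrpl28 were nearly equal, and in Mrpl23 KA-SE replicate 1 alone was low. Mrps24, the counterpart of a bacterial protein at the mRNA entry, gave 11.46, 11.32 and 11.39 in saline and 11.19, 11.30 and 11.49 in KA-SE. Mrps33, found only in mitochondria, gave 11.65, 11.79 and 11.89 in saline and 11.61, 11.70 and 11.85 in KA-SE. Both had KA-SE replicate 1 lowest and KA-SE replicate 3 within or above the saline range. Of the weak probes, Mrpl45, whose protein helps to hold the ribosome at the inner membrane, gave 5.13, 5.27 and 5.52 in saline and 5.35, 4.99 and 5.05 in KA-SE. Mrps27, a pentatricopeptide repeat protein, gave 6.93, 6.86 and 6.97 in saline and 6.75, 6.55 and 7.04 in KA-SE. In both, KA-SE replicate 2 was the lowest array. Mrps15, with a bacterial counterpart, gave 7.41, 7.21 and 6.95 in saline and 7.23, 7.22 and 7.17 in KA-SE, and its KA-SE values all lay inside the saline range. The log2 changes of these 7 genes ran from -0.17 for Mrpl45 to 0.07 for Mrpl28.

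A group of members was far lower on KA-SE replicate 1 than on the other 5 arrays. The genes named for this were chosen after their values were seen, as the 3 of each subunit farthest below the saline mean on that array, and no test is given for the choice. They were Mrpl52, Mrpl55 and Mrpl54 in the large subunit and Mrps18b, Mrps21 and Mrps28 in the small subunit. Mrpl52, found only in mitochondria, gave 9.29, 9.09 and 8.82 in saline and 8.32, 9.10 and 9.10 in KA-SE, so that KA-SE replicate 1 was 0.75 below the saline mean and the other KA-SE arrays were inside the saline range. Mrpl55 gave 8.10, 7.95 and 8.32 in saline and 7.50, 7.78 and 8.22 in KA-SE, with KA-SE replicates 1 and 2 both below saline. Mrps18b gave 9.49, 9.64 and 9.75 in saline and 9.07, 9.51 and 9.64 in KA-SE. Only KA-SE replicate 1 left the saline range on this probe. Of the other 2 tested probes, 1 had KA-SE replicate 1 inside the saline range (8.30, saline 8.17 to 8.49). The other had it just below that range (7.65, saline 7.70 to 8.09). All 3 probes had a negative log2 change (-0.22 to -0.15). Mrps21, with a bacterial counterpart, gave 9.71, 9.60 and 9.87 in saline and 9.17, 9.96 and 10.03 in KA-SE. KA-SE replicate 1 was below and the other KA-SE arrays above every saline array, and the mean change was -0.004 (SE 0.21). Mrps28 gave 8.26, 8.43 and 8.34 in saline and 7.80, 8.47 and 8.34 in KA-SE, again with KA-SE replicate 1 alone below. Without KA-SE replicate 1, the log2 change was 0.04 for Mrpl52, 0.27 for Mrps21 and 0.06 for Mrps28, and it stayed negative for Mrpl54 (-0.12), Mrpl55 (-0.12) and Mrps18b (-0.05).

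**Figure D3:**
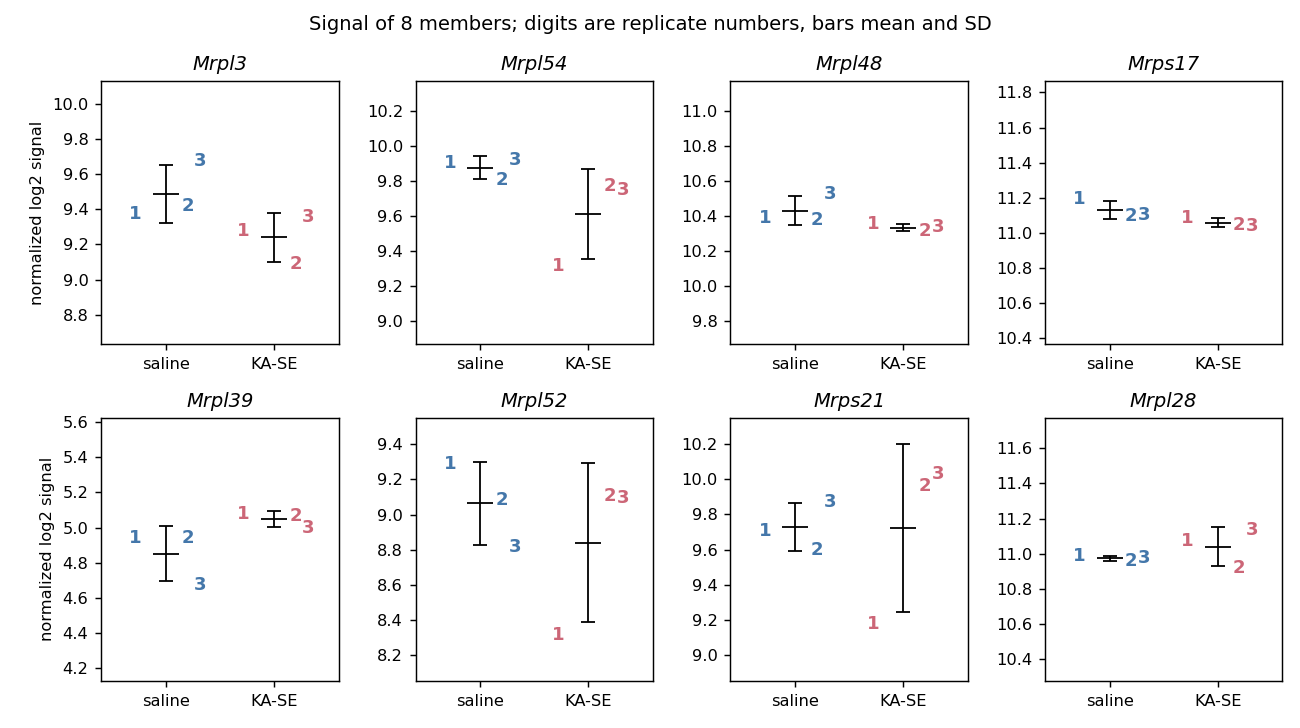
Normalized log2 signal (vertical axes, each spanning 1.5 units) of 8 members in saline and KA-SE mice, with digits for the replicate numbers, horizontal marks for the means and bars for the SD (n = 3 a group). Mrpl3, Mrpl54, Mrpl48, Mrps17 and Mrpl39 have groups that do not overlap, and in Mrpl52 and Mrps21 the digit 1 of KA-SE lies far below the others.

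By role, Mrpl10, Mrpl11 and Mrpl12, whose bacterial counterparts form the stalk that recruits translation factors, were named after their values were seen. Mrpl12, which also binds the mitochondrial RNA polymerase, gave 10.46, 10.63 and 10.63 in saline and 10.40, 10.61 and 10.86 in KA-SE, with the KA-SE arrays on both sides of saline. The log2 changes of Mrpl10, Mrpl11 and Mrpl12 were 0.06, -0.06 and 0.05, each smaller than its SE (0.11, 0.11 and 0.14).

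Members with several probes gave a check on direction within the same arrays, which is not an independent one. Of the 73 genes, 25 had several tested probes. All probes had a negative change in 14 of them, all had a positive change in 4, and the signs differed in 7. The same shares were not taken over all genes. Mrpl15, a large subunit protein with a bacterial counterpart, had 6 tested probes, all negative (-0.18 to -0.06). The weakest 2 of them had mean log2 signals of only 5.04 and 5.03. Mrpl33, a small protein of the large subunit, had changes of -0.31 and -0.15. Mrpl9 had 0.09 from both probes. These 3 genes were chosen after their values were seen. The widest disagreement was that of Mrpl3, already given. No member probe had an unadjusted p under 0.05, and the smallest was 0.080.

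By evolutionary class, the 43 tested members with a bacterial counterpart had a median log2 change of -0.036 (29 negative), and the 29 found only in mitochondria had -0.035 (22 negative). The remaining gene, Mrpl58, encodes a protein related to bacterial release factors and had a change of -0.13. The class medians lay farthest apart on KA-SE replicate 1, where the median was -0.16 for the bacterial class and -0.029 for the mitochondrial class, whereas on KA-SE replicate 3 it was 0.047 and 0.018. This gap was noticed after the values were seen and was not tested. The members with an ETS motif in a promoter window (26 genes) had a median change of -0.077 with 22 negative, and those with a window but no such motif (39 genes) had -0.032 with 24 negative. The other motifs gave the opposite order, with 0.018 for the 6 genes with the NRF1 motif against -0.036 for the 59 without it, and -0.012 for the 11 genes with the YY1 motif against -0.035 for the 54 without it. On KA-SE replicate 1 the medians with and without the motif were -0.20 and -0.04 for ETS, -0.056 and -0.10 for NRF1 and -0.17 and -0.10 for YY1. Mrpl52, whose window is printed above, was the lowest member there, and Mrpl55, the next lowest (-0.62), had a window without the ETS motif. This too is a description of the same 6 arrays.

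Genes that work with the mitochondrial ribosome gave no call either. Of the proteins of the ribosome with other names, 4 genes were tested (median log2 change 0.002), with Ptcd3, a small subunit protein, at -0.13. The 16 translation factors and mRNA-binding proteins had a median of -0.002, with 8 negative. Lrpprc, which stabilizes mitochondrial mRNAs, had the smallest p among them, with a log2 change of -0.24 (SE 0.12, adjusted p = 0.679 by limma). The 17 aminoacyl-tRNA synthetases had a median of -0.055, with Tars2, the threonyl enzyme, at -0.21. The 23 ribosome assembly factors had a median of -0.006, with Mpv17l2, a membrane protein needed for assembly, at 0.18. For transcription and upkeep of mitochondrial DNA (12 genes) the median was 0.031, with Polg2, the accessory subunit of the DNA polymerase, at 0.16. The 26 import and chaperone genes had a median of 0.001, and the 7 regulators of mitochondrial biogenesis -0.039, with Gabpb1, a subunit of the GA-binding protein, at 0.26. Tomm6, a small subunit of the outer membrane import channel, gave 10.94, 11.03 and 11.08 in saline and 10.35, 10.80 and 10.93 in KA-SE (log2 change -0.33, SE 0.15, adjusted p = 0.632 by limma). In Tomm6 the groups did not overlap and KA-SE replicate 1 was again the lowest. In each of these lists 0 genes had an unadjusted p under 0.05.

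The respiratory chain, some of whose subunits the mitochondrial ribosome makes, and the cytosolic ribosome lay farther below saline on KA-SE replicate 1 than the members did. For the respiratory chain, 66 nuclear genes were tested, of which 60 had a negative change (median -0.12) and 0 passed. By complex the median was -0.14 for complex I (33 of 33 negative), 0.06 for complex II (0 of 3), -0.14 for complex III (6 of 7), -0.12 for complex IV (9 of 9) and -0.095 for complex V (12 of 14). Of all genes, 50.3% had a negative change. The median of complex I relative to saline was -0.32, -0.062 and 0.024 on KA-SE replicates 1, 2 and 3. The genes with the smallest p were Ndufa5 (-0.40), Sdhc (0.09), Uqcrq (-0.21), Cox6a1 (-0.21) and Atp5j (-0.15), all subunits of these complexes. On KA-SE replicate 1 the chain was at -0.31, with 66.7% of its genes lowest on that array. The 50 genes of the cytosolic ribosome had a median change of -0.039, with 30 negative and Rpl7a at 0.29. They were at -0.33 on KA-SE replicate 1, where 74.0% were lowest, and at 0.05 and 0.13 on KA-SE replicates 2 and 3. Without KA-SE replicate 1, the median change was -0.033 for the respiratory chain, 0.11 for the cytosolic ribosome and 0.009 for the members. The array of KA-SE replicate 1 thus had the lowest median of the 6 arrays for all 3 lists (-0.104 for the members). It also had the lowest median for the import and chaperone genes (-0.068, with 34.6% of them lowest there). It lay at 0.023 for the ribosome assembly factors and at 0.095 for the translation factors. These lists were set beside each other with no test of their differences. RNA quality and array position were not analysed here.

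**Figure D4:**
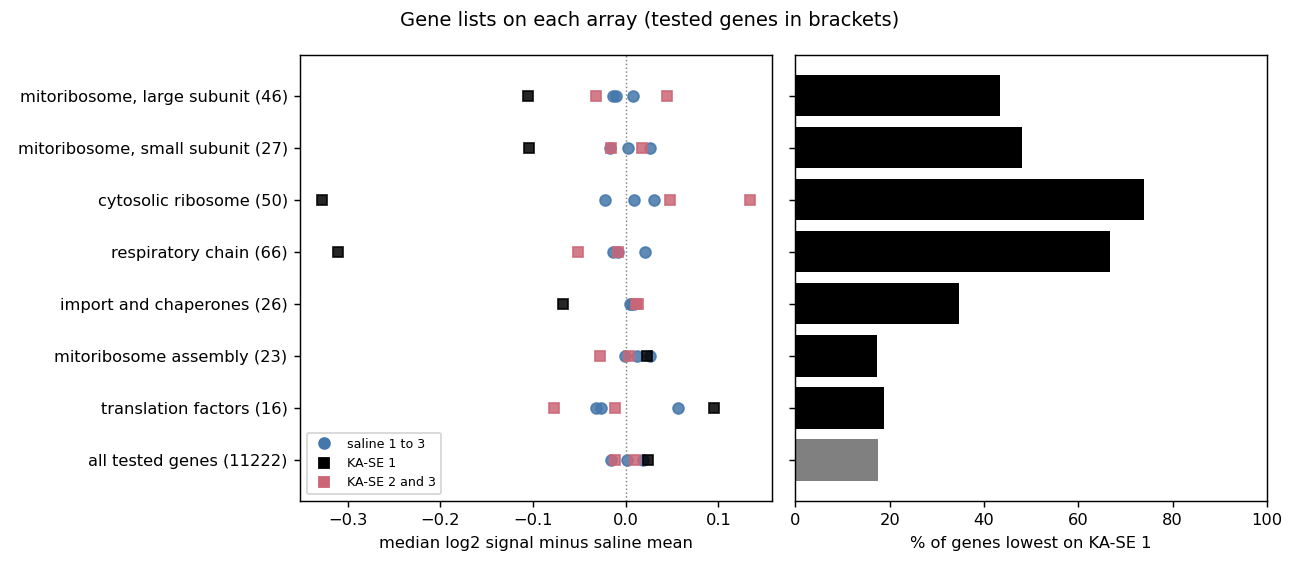
Left, the median log2 signal minus the gene's saline mean on each of the 6 arrays (circles saline, squares KA-SE, black for KA-SE replicate 1) for the members and other gene lists, with the number of genes tested in brackets. Right, the share of each list's genes, in percent, whose lowest value was that of KA-SE replicate 1, which is 43.5% and 48.1% for the large and small subunit and 17.6% for all genes.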

How the data were processed

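Total RNA from the right DG of 6 mice was measured on Illumina MouseWG-6 bead arrays, with 1 array for each mouse. The authors deposited for each probe and array a raw intensity on a linear scale, without normalization, and a detection p-value from their array software. A further deposited table holds values that the authors background-corrected, transformed and normalized, and its unit is called a score here, as its log base is unknown. For upstream software, no versions were found in the sources used here. Arrays were grouped by the sample titles, and 2 raw KA-SE columns with an additional digit in their names by their trailing replicate number.

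Intensities were processed with neqc (limma 3.58.1, R 4.3.3), which applies normexp with an offset of 16, quantile normalization and log2. The test took the 21226 of 45281 probes that were detected (p-value below 0.05) throughout either group of 3 arrays. Limma's lmFit and eBayes (prior degrees of freedom 6.4) gave two-sided p-values for KA-SE minus saline, adjusted by Benjamini-Hochberg over all probes tested, with a threshold of 0.05. Limma's intervals use 10.4 degrees of freedom. The number of arrays limits the precision. Each p-value sets the group difference against the spread between these mice, moderated by that of all probes tested.

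A gene is its tested probe with the highest mean, and probes were named from the platform annotation, updated through RefSeq (34885 probes with 1 gene, 18 with several, left unnamed, and 10378 with none listed). Signals of different probes are not compared, as probes differ in binding. The genes named are those passing, those whose groups do not overlap, the 2 strongest and 2 weakest probes of each subunit, genes whose probes differ in sign by over 0.3, genes detected fully in 1 group only, and the gene with the smallest p of each other list. The members, the 23 lists and the tests were chosen with earlier results of these data known. Alternatives covered background correction, scaling, the score, filters, probe choice, variance prior, array weights, a replicate block and omission of each array. Python 3.11.15 with pandas 2.3.3 made the summaries.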

Additional observations from a re-analysis of the deposited data

How the results depend on the processing

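No member passed under any alternative run, and an unadjusted p under 0.05 was reached by 1 member with array weights, with median scaling and without KA-SE replicate 3, and by 0 otherwise. Scaling each array to its median without quantile normalization moved the median of all genes by -0.10, the large and small subunit to -0.16 and -0.17, and negative changes to 44 of 46 and 27 of 27 (73.8% of all genes). Relative to all genes, the subunits were then at -0.061 and -0.068. The per-array medians under that scaling, for saline replicates 2 and 3 and KA-SE replicates 1 to 3, were -0.22, 0.23, -0.19, -0.24 and -0.044 in the large subunit and -0.22, 0.22, -0.21, -0.22 and -0.068 in the small subunit, where all genes had -0.19, 0.17, -0.037, -0.16 and -0.080. In the score, on its own scale, the small subunit was at -0.054 on KA-SE replicate 1. With each array left out in turn, the large subunit median ran from -0.10 (without KA-SE replicate 3) to 0.014 (without KA-SE replicate 1) and the small subunit median from -0.089 to 0.0041, with 21 to 33 and 12 to 21 negative changes. Single genes changed sign under median scaling (Mrpl28 -0.050, Mrps15 -0.090, Sdhc -0.037, Mrpl9 -0.036, Mrpl10 -0.068, Mrpl12 -0.076), all of them above the -0.10 of all genes under that scaling, so none turned relative to all genes. Mrps21 changed sign with array weights (0.073). With an array left out, the change of these genes ran from -0.23 to 0.0086 for Mrpl23, -0.14 to 0.0084 for Mrps24, -0.36 to 0.036 for Mrpl52, -0.16 to 0.27 for Mrps21, -0.27 to 0.059 for Mrps28 and -0.24 to 0.037 for Mrpl33, each highest without KA-SE replicate 1. It ran from -0.0097 (without KA-SE replicate 1) to 0.11 for Mrpl10, from -0.10 (without saline replicate 3) to 0.12 for Mrps15, from -0.028 (without saline replicate 1) to 0.15 for Mrpl9 and from -0.069 (without KA-SE replicate 3) to 0.16 for Mrpl12. The cause was not tested. The other 588 values for named genes kept direction and call. Calls over all genes, 33 higher and 2 lower, ran from 0 (no filter on dim probes) to 60 (array weights) higher and from 0 to 8 (median scaling) lower, with 6 and 1 in the score and 52 and 2 without KA-SE replicate 1. The deviations of samples with the same replicate number correlated at 0.18 and 0.24 for replicates 2 and 3, each the highest value of these arrays. For replicate 1 the value was 0.022, and KA-SE replicate 1 correlated more with saline replicate 2 (0.053). Deviations from a group mean sum to 0 within the group, so these correlations cannot decide whether the numbers pair samples. The numbers were not taken as pairs because they mark different mice and the paper's methods describe no pairing. With the number as a replicate block, the members' medians stayed at -0.035 and -0.035, 0 members passed, and the calls over all genes were 19 and 2. Groups of 3 arrays and the dim probe of Mrpl39 limit what can be resolved.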
